A study of Mus musculus with 8 samples.

Results

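Hgf encodes hepatocyte growth factor and Met encodes the receptor tyrosine kinase that binds it. The members were all array probes that the platform annotation assigns to either gene symbol, which gave 3 probes for Hgf (Entrez gene 15234) and 1 for Met (Entrez gene 17295), or 4 of the 45281 probes on the array. They make up 2 of the 19057 genes named on it. Hgf was chosen by its measured difference between the stressed and unstressed arrays of this study, and Met as its receptor, so the Hgf difference is described here and was not tested.

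HGF is secreted, in many tissues by stromal cells, as an inactive precursor that serine proteases cleave into its active form. The active factor binds MET, and the receptor then recruits adaptor proteins that feed the RAS-MAP kinase and PI3 kinase cascades. In the developing forebrain of mice, MET is known from cortical projection neurons, where it takes part in neurite growth and synapse formation.

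There were 4 samples from mice immobilized for 2 h and examined 6 days later at rest (IMO, replicates 1 to 4), and 4 from mice without stress (No stress, replicates 5 to 8). All were males of 10 weeks, and each sample was total RNA from 1 mm punches of the medial prefrontal cortex of both hemispheres, measured on an Illumina bead array with 1 array per sample. The sources used here give neither the strain nor whether each sample came from a single animal, so the p-values below measure only the spread between these samples. Values are log2 of the signal intensity in the authors' value table unless stated otherwise, and a probe counted as detected on an array where its deposited detection p was under 0.05, which corresponded to a log2 signal of 6.05 to 6.13.

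Each array detected 20012 to 21038 probes, and arrays correlated at 0.979 to 0.994 within groups and at 0.975 to 0.99 between groups. All 9 excitatory neuron markers and all 9 interneuron markers measured were detected on all 8 arrays. IMO replicate 1 and No stress replicate 6 stood apart from the rest. Prkcd, a marker of thalamic and other subcortical neurons, had a log2 signal of 10.10 in IMO replicate 1 and 10.30 in No stress replicate 6, against 7.37 to 7.69 on the other 6 arrays. The septal and thalamic marker Zic1 stood at 11.86 and 11.63 on the same arrays, against 8.81 to 9.70 elsewhere. Cux2, a marker of upper-layer cortical neurons, was at 7.85 and 8.04 there, against 9.15 to 9.80 elsewhere. There was 1 such array in each group, and the Hgf difference, the count over the pathway lists and the list correlations are given with and without both.

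Hgf was measured by 1 of its 3 probes, ILMN_1237666, designed on the cDNA AK052289 and detected on all 4 IMO and all 4 No stress arrays. Its linear signal was 291, 290.5, 257 and 266 in IMO replicates 1 to 4, against 164, 196, 129.9 and 153 in No stress replicates 5 to 8. Every IMO array lay above every No stress array. The lowest IMO array exceeded the highest No stress array by 0.39 on the log2 scale. Among all named genes at their brightest tested probe, the groups did not overlap for 7.17%, with IMO above No stress for 3.25% and below it for 3.92%.

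On the log2 scale Hgf averaged 8.11 ± 0.09 in IMO and 7.31 ± 0.25 in No stress (SD, n = 4 each). The difference was 0.79 (SE 0.12), or 1.73-fold (1.59 to 1.89 at 1 standard error either side). The median difference of all 11018 named genes was -0.01. The IMO arrays spanned 0.18 log2 units. The No stress arrays spanned 0.60, with replicate 7 lowest at 7.02 and replicate 6 highest at 7.62. In bulk tissue, more cells that express a gene and more RNA per cell cannot be told apart.

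The array with the most Hgf in each group was also the one rich in subcortical markers: IMO replicate 1 at 8.19 and No stress replicate 6 at 7.62. Without both, Hgf averaged 8.08 in IMO and 7.21 in No stress, a difference of 0.87. The difference was as large without these arrays as with them.

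**Figure D1:**
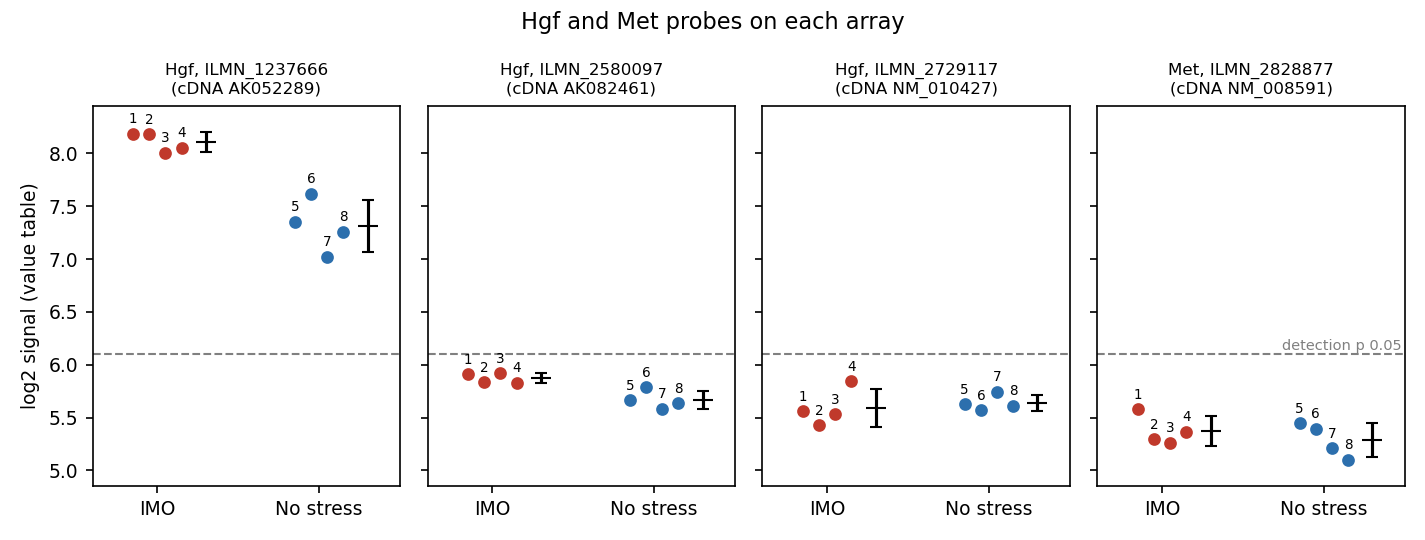
Log2 signal of the 3 Hgf probes and the Met probe on each array, numbered by replicate, with IMO (red) left of No stress (blue). Black bars are the mean ± SD (n = 4), and the dashed line is the mean log2 signal at which detection p reaches 0.05; the points of ILMN_1237666 lie above it on all 8 arrays, and those of the other 3 probes lie below it.

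The direction of the Hgf difference depended on which of the 2 deposited tables was read. The second table, which was deposited under the name of non-normalized data, carries other numbers for the same samples. There the probe stood at 7.89, 7.20, 7.89 and 7.89 in IMO, against 7.58, 8.39, 7.81 and 7.85 in No stress. These groups overlapped, and the means were 7.72 ± 0.34 in IMO and 7.91 ± 0.34 in No stress (SD, n = 4 each), a difference of -0.19 (SE 0.21). With the probes of an array put in order of signal, the deposited detection p went up at 0% of steps for the value table and at 33.4% to 36.8% for the other, so the detection p-values follow the value table.

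**Figure D2:**
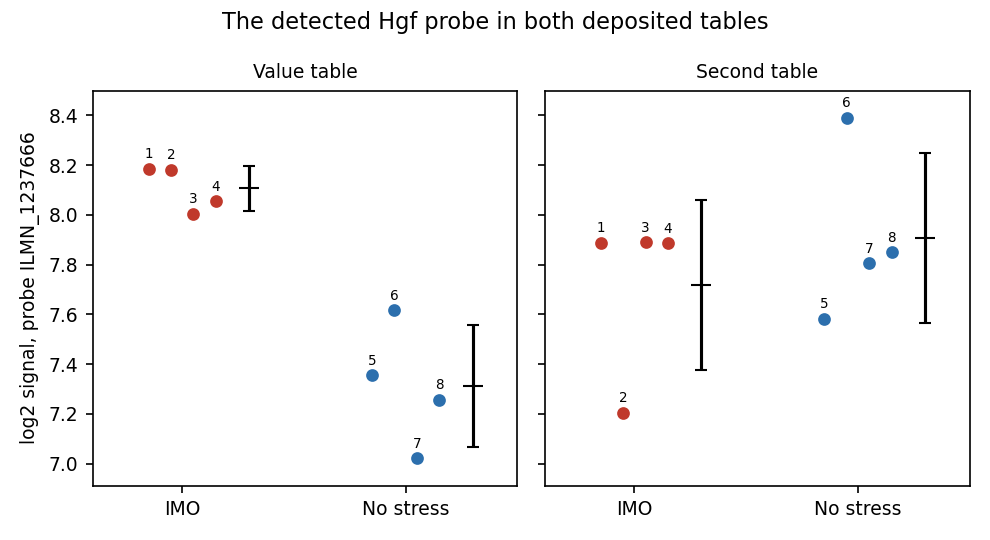
Log2 signal of the detected Hgf probe on each array in the value table (left) and in the second deposited table (right), numbered by replicate, with IMO (red) left of No stress (blue) and the mean ± SD (n = 4) in black. The groups are separate in the value table, with means of 8.11 in IMO and 7.31 in No stress, and overlap in the second table, with means of 7.72 in IMO and 7.91 in No stress.

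The other Hgf probes were not above background on any array. ILMN_2580097, designed on the cDNA AK082461, read 5.91, 5.84, 5.92 and 5.83 in IMO and 5.66, 5.79, 5.58 and 5.63 in No stress. Its detection p was 0.0962 to 0.159 in IMO and 0.183 to 0.370 in No stress. The groups did not overlap, by a margin of 0.04, but a fold has no meaning below background. ILMN_2729117, designed on the reference transcript NM_010427, read 5.56, 5.43, 5.53 and 5.85 in IMO and 5.63, 5.57, 5.74 and 5.61 in No stress, and the groups overlapped. The difference in Hgf therefore rests on 1 probe, and the probe on the reference transcript gave no measurement of it.

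Met was not detectable in these punches with this array. Its only probe, ILMN_2828877 (NM_008591), was above background on 0 of 4 IMO and 0 of 4 No stress arrays. It read 5.58, 5.29, 5.26 and 5.37 in IMO and 5.44, 5.39, 5.21 and 5.10 in No stress, with a detection p of 0.354 to 0.850 in IMO and 0.578 to 0.974 in No stress. The groups overlapped, with means of 5.38 ± 0.14 in IMO and 5.29 ± 0.16 in No stress (SD, n = 4 each). A low Met mRNA cannot be told apart from a probe that binds it poorly. These are readings at background, so they give no Met level, and no fold, test or correlation is drawn from them. The relatives of the pair were also below the detection filter (4 of 8 arrays): Mst1, which encodes the related factor MSP, was detected on 1 array, and Mst1r, which encodes its receptor RON, on 3.

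The other genes of the pathway were read together with growth factors of other receptors. These 6 lists, called the pathway lists below, held 78 genes. Of them 44 were tested at their brightest probe, 25 were below the filter and 9 had no probe named. The growth factors of other receptors made up 18 of the 78 and 11 of the 44. No gene passed an adjusted p of 0.05 in limma with Benjamini-Hochberg adjustment over 20531 probes, either in the lists (0 of 44) or among all named genes (0%). At an unadjusted limma p under 0.05 there were 7 of 44, of which 2 were higher and 5 lower in IMO. The growth factors of other receptors gave 3 of these 7, with 2 higher and 1 lower, so both higher genes came from that list. Among all named genes the share was 10.6%, with 4.74% higher and 5.86% lower in IMO. The means of 19 listed genes were higher and those of 25 lower in IMO, with a median difference of -0.04, and 7 had groups that did not overlap. Of all named genes, 47.6% had a higher mean in IMO and 7.17% had groups that did not overlap. Without IMO replicate 1 and No stress replicate 6 the count was again 7 of 44, or 15.9%, against 11.5% of all named genes. In the second deposited table it was 1 of 44, against 2.89% of all named genes.

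Proteases and inhibitors that govern the release of active HGF were mostly too low to measure: 11 of the 14 listed were below the filter, among them Hgfac, Hpn and St14, which encode the proteases HGF activator, hepsin and matriptase and were detected on no array. Plat, which encodes tissue-type plasminogen activator, read 9.13, 9.27, 9.26 and 8.97 in IMO and 9.11, 8.74, 8.89 and 9.01 in No stress. The groups overlapped, and the difference of 0.22 (SE 0.11) had an unadjusted limma p of 0.0611 and an adjusted p of 0.496. Spint1, which encodes HAI-1, a membrane inhibitor of HGF activator, averaged 7.75 ± 0.59 in IMO and 7.82 ± 0.43 in No stress (SD, n = 4 each). Its high arrays were IMO replicate 1 at 8.62 and No stress replicate 6 at 8.45, the arrays rich in subcortical markers, while the other 6 read 7.38 to 7.71. The part of the punch position in that spread was not tested.

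Of the proteins that bind MET or HGF at the cell surface, 10 of 11 genes were tested, 4 with a higher and 6 with a lower mean in IMO, at a median difference of -0.12. Itga6, which encodes the integrin alpha 6 chain, read 6.91, 6.68, 6.81 and 6.77 in IMO and 7.28, 6.83, 7.26 and 7.11 in No stress. The difference was -0.33 (SE 0.11), with an unadjusted limma p of 0.0138 and an adjusted p of 0.362. The ranges overlapped through No stress replicate 6, and the other tested Itga6 probe gave -0.02. Gpc1, which encodes the heparan sulfate proteoglycan glypican 1, averaged 11.13 ± 0.14 in IMO and 11.34 ± 0.05 in No stress (SD, n = 4 each), with groups that did not overlap and an adjusted limma p of 0.458. In the second table both had the opposite sign, at 0.13 for Itga6 and 0.0914 for Gpc1. The plexin genes Plxnb1, Plxnb2 and Plxnb3, the neuropilin genes Nrp1 and Nrp2 and Cd44, whose products associate with MET or its ligand, had differences between -0.23 and 0.17 at their brightest probes. Other tested probes gave 0.24 and 0.31 for Nrp1, -0.04 for Nrp2 and, with the sign turned, 0.10 for Cd44.

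Among the adaptors and kinases downstream of MET, 13 of 22 genes were tested and 6 had no probe named. The means of 7 were higher and of 6 lower in IMO, with a median difference of 0.01. Shc1, which encodes an adaptor of receptor tyrosine kinases, read 8.74, 8.67, 8.19 and 8.68 in IMO and 8.89, 8.89, 8.87 and 9.21 in No stress. The groups did not overlap, and the difference of -0.40 (SE 0.13) had an adjusted limma p of 0.361, but a second, dimmer Shc1 probe gave 0.09. Crkl, which encodes the adaptor CRKL, averaged 7.69 ± 0.20 in IMO and 7.93 ± 0.15 in No stress (SD, n = 4 each), with groups that overlapped. In the second table both had the opposite sign, at 0.14 for Shc1 and 0.0195 for Crkl. The adaptor genes Gab1, Grb2 and Crk and the transcription factor gene Stat3 had differences of -0.19, 0.10, 0.04 and 0.06, each with an unadjusted limma p above 0.05. The other tested Stat3 probes had the opposite sign, at -0.10 and -0.22.

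Of the negative regulators of MET, 8 of 11 were tested, 3 with a higher and 5 with a lower mean in IMO. Ptpn1, which encodes PTP1B, a phosphatase that acts on MET, read 8.16, 7.90, 7.75 and 7.93 in IMO and 8.47, 8.17, 8.23 and 8.40 in No stress. The groups did not overlap. The difference was -0.38 (SE 0.11), with an unadjusted limma p of 0.00488 and an adjusted p of 0.333. Ptprf, which encodes the receptor phosphatase LAR, averaged 8.22 ± 0.02 in IMO and 8.07 ± 0.20 in No stress (SD, n = 4 each), with an unadjusted limma p of 0.180. The second table gave the opposite sign for Ptpn1 (0.0184) and Ptprf (-0.0827). Cbl, which encodes a ubiquitin ligase of the activated receptor, was detected on 0 arrays.

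The other growth factor genes were listed to set Hgf beside ligands of other receptor tyrosine kinases. Of 18, 11 were tested, 4 with a higher and 7 with a lower mean in IMO, and 4 had groups that did not overlap, against 7.17% of all named genes. Bdnf, which encodes brain-derived neurotrophic factor, averaged 9.54 ± 0.10 in IMO and 9.09 ± 0.24 in No stress, and Pdgfa, which encodes a platelet-derived growth factor chain, 11.31 ± 0.05 in IMO and 11.11 ± 0.08 in No stress (SD, n = 4 each). For both, as for Hgf, every IMO array lay above every No stress array. Vegfa, which encodes vascular endothelial growth factor A, ran the other way, at 10.04 ± 0.11 in IMO and 10.45 ± 0.06 in No stress (SD, n = 4 each). The differences were 0.45 (SE 0.12) for Bdnf, 0.20 (SE 0.08) for Pdgfa and -0.41 (SE 0.09) for Vegfa, with adjusted limma p-values of 0.333, 0.418 and 0.239. Other tested probes gave smaller differences of the same sign, at 0.39 and 0.22 for Bdnf and -0.18 for Vegfa. In the second table the brightest probes gave -0.0435 for Bdnf, with the sign turned, 0.0227 for Pdgfa and -0.11 for Vegfa. Gas6, which encodes a ligand of the TAM receptors, was the other gene without overlap, with a difference of -0.12 (SE 0.08).

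**Figure D3:**
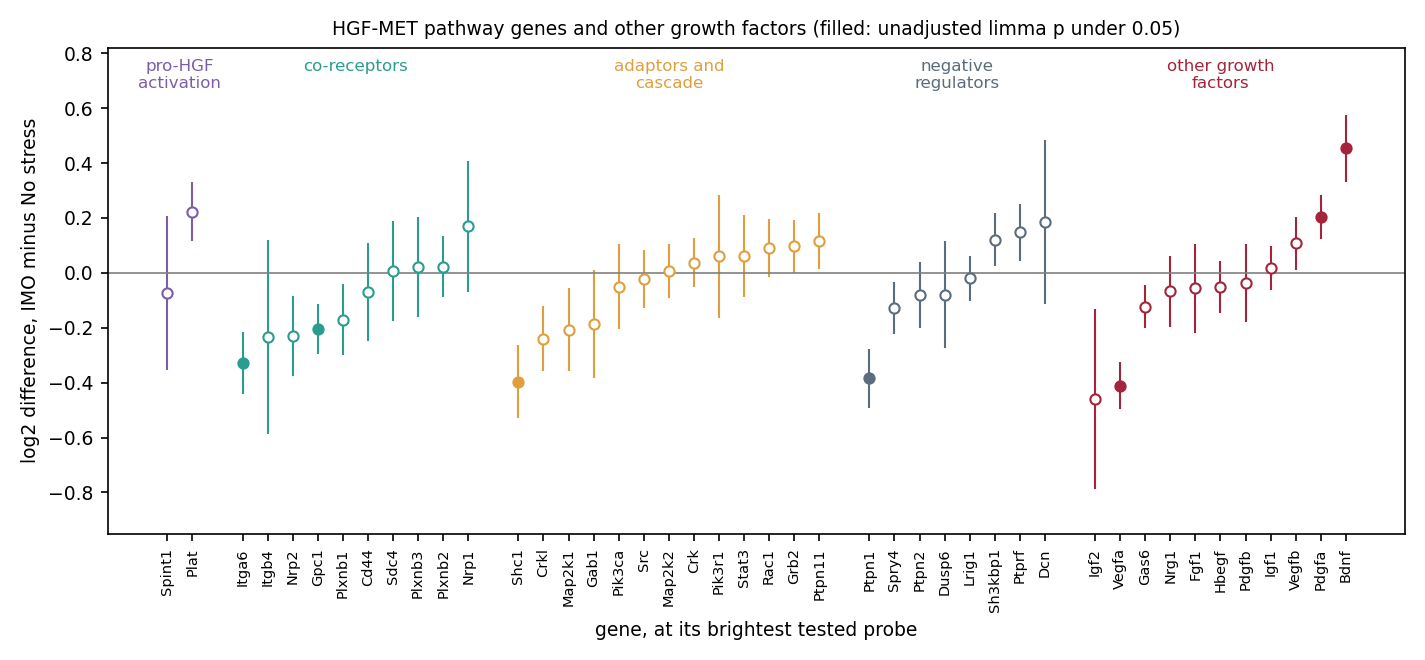
Log2 difference, IMO minus No stress, of the 44 tested genes of the HGF-MET pathway and of other growth factors at their brightest tested probe, with bars of 1 standard error. Filled points mark the 7 genes with an unadjusted limma p under 0.05, of which 2 lie above 0 (Bdnf and Pdgfa) and 5 below (Itga6, Gpc1, Shc1, Ptpn1 and Vegfa); none has an adjusted p under 0.05.

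Hgf was then set against 12 lists of cell type and region markers over the arrays, each list read as the mean of its genes after every gene was centred on its mean over the 8 arrays. Because the Hgf signal fell into separate sets by group, coefficients pooled over the groups are not given; 0 of 12 had an adjusted exact permutation p under 0.05, and 0 an unadjusted one. Both measures were instead centred on their group means, and the arrays were permuted within groups (576 permutations, two-sided, Benjamini-Hochberg adjustment over the 12 lists). Here too 0 of 12 lists passed an adjusted p of 0.05, and 4 had an unadjusted exact p under 0.05. In the second deposited table, fitted in the same way, no list had an unadjusted exact p under 0.05, and its coefficients are given beside those of the value table.

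The subcortical list, whose mean was 0.66, -0.20, -0.48 and -0.14 in IMO and 0.06, 0.87, -0.59 and -0.18 in No stress, had the highest coefficient of the 12. Pearson's r with Hgf within groups was 0.87 (exact p = 0.0122, adjusted 0.0833) and Spearman's rho 0.93 (exact p = 0.0104, adjusted 0.125) over 8 arrays. All 7 genes of this list had an r above 0, with a median of 0.78, against a median of -0.03 and 48.0% above 0 for all named genes. All genes of the oligodendrocyte and blood lists were also above 0, with medians of 0.54 and 0.11. With No stress replicate 6 and IMO replicate 1 left out, the r of the subcortical list was 0.90. It was 0.37 when No stress replicate 7 and IMO replicate 3 were left out as well, but too few arrays then remain for the coefficient to be read. In the second table, over 8 arrays, r was 0.12 (exact p = 0.835). Hgf was lowest in IMO replicate 3 and No stress replicate 7, the arrays where the subcortical list was lowest in each group. The astrocyte, mural, meningeal and microglia lists were also lowest on these arrays, so the match was not particular to the subcortical list.

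Astrocyte markers had an r of 0.75 with Hgf within groups (exact p = 0.0191, adjusted 0.0833) and a rho of 0.81 (exact p = 0.0347, adjusted 0.139). Without No stress replicate 7 and IMO replicate 3, the arrays farthest from the median, r was 0.34, so its size depended on those arrays. It was 0.92 without IMO replicate 1 and No stress replicate 6, and 0.49 in the second table. All 14 astrocyte markers were detected on all 8 arrays, and 13 of 14 had an r above 0, with a median of 0.71. The genes named next, here and for the glial and vascular lists below, were chosen by r pooled over the groups. They need not be the extremes within groups, where astrocyte genes ran from -0.04 (S100b) to 0.81 (Slc1a2). Gjb6, which encodes a gap junction connexin, had an r of 0.74 within groups, Fgfr3, a fibroblast growth factor receptor gene, 0.71, and Glul, which encodes glutamine synthetase, 0.04. The astrocyte list did not separate the groups, with 7 of its genes higher and 7 lower in mean in IMO.

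Oligodendrocyte precursor markers had an r of 0.73 (exact p = 0.0208, adjusted 0.0833) and a rho of 0.81 (exact p = 0.0295, adjusted 0.139), and 0.96 without IMO replicates 1 and 4. It was 0.83 without IMO replicate 1 and No stress replicate 6, and -0.05 in the second table, where the sign turned. Pdgfra, the receptor gene that marks these cells, had an r of 0.53 within groups, Gpr17 0.47 and Cacng4 -0.46. Mature oligodendrocyte markers had an r of 0.53 (exact p = 0.215, adjusted 0.381), but -0.73 once IMO replicate 1 and No stress replicate 6 were left out, and -0.43 in the second table. The list stood at 0.96 and 1.10 on those arrays, against -0.67 to 0.04 on the other 6. At their brightest probes all 10 of its genes had lower means in IMO, with a median difference of -0.27, although 0 had an unadjusted limma p under 0.05. Of all named genes, 47.6% had a higher mean in IMO. Some other tested probes turned the sign, at 0.07 for Mbp, 0.11 and 0.12 for Mobp and 0.01 for Aspa. The rest of the other probes gave -0.16 to -0.02. Mobp, Aspa and Opalin, genes of myelin and myelinating cells, had an r of 0.56, 0.65 and 0.51 within groups over all 8 arrays. Without IMO replicate 1 and No stress replicate 6 these were -0.72, 0.26 and -0.90.

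Markers of microglia and endothelial cells had an r of 0.08 (exact p = 0.821, adjusted 0.852) and 0.10 (exact p = 0.852, adjusted 0.852). The microglia coefficient depended on single arrays, at -0.62 without No stress replicate 7 and 0.90 without No stress replicate 6, so it shows neither a relation nor the lack of one. Without IMO replicate 1 and No stress replicate 6, r was 0.90 for microglia and 0.41 for endothelial cells, and in the second table it was 0.50 and 0.29. Cx3cr1, Siglech and P2ry12, genes of microglia, had an r of -0.06, 0.19 and -0.27 within groups over 8 arrays, and 0.22, 0.89 and 0.61 without those arrays. Slc2a1, Pecam1 and Cldn5, which encode the glucose transporter GLUT1 and the endothelial proteins PECAM-1 and claudin 5, had an r of -0.59, 0.06 and 0.48, and -0.26, 0.79 and 0.61 without them. The means of 9 of 12 endothelial genes were lower in IMO.

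Markers of mural cells, the pericytes and smooth muscle of vessels, had an r of 0.45 (exact p = 0.0920, adjusted 0.221), and those of meningeal cells 0.43 (exact p = 0.389, adjusted 0.583). Without IMO replicate 1 and No stress replicate 6 they were 0.58 and 0.63, and in the second table they were 0.42 and 0.22. The means of 6 of 10 mural and 8 of 9 meningeal genes were lower in IMO. Anpep, Des and Pdgfrb of the mural list had an r of 0.20, 0.46 and -0.32. Lum, Slc6a13 and Ptgds of the meningeal list had an r of 0.58, 0.63 and -0.31. Of 74 glial and vascular genes, 0 passed an adjusted exact permutation p of 0.05 within groups (smallest 0.225) and 7 had an unadjusted one under 0.05, beside 11.2% of all named genes. Those 7, chosen after their values were seen, were the astrocyte genes Aqp4, Gfap, Slc1a2, Slc1a3 and Slc4a4, the precursor gene Olig1 and the mural gene Rgs5.

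Interneuron markers had an r of 0.69 within groups (exact p = 0.0486, adjusted 0.146), and 0.40 without IMO replicate 1 and No stress replicate 6. It was 0.39 without No stress replicate 6 alone and 0.82 without IMO replicate 1 alone, so its size depended on the arrays read. The sign turned in the second table, at -0.21. Excitatory neuron markers had an r of -0.48 (exact p = 0.222, adjusted 0.381), and 2 of their 9 genes had an r above 0. It was -0.05 without those arrays and -0.47 in the second table. Blood and choroid plexus markers had an r of 0.10 (adjusted exact p = 0.852) and 0.17 (adjusted exact p = 0.852), against 0.49 and -0.08 without those arrays and 0.17 and -0.28 in the second table. All 4 blood and all 3 choroid plexus genes, and 6 of 7 subcortical genes, had lower means in IMO. The median differences were -0.68, -0.85 and -0.06, the last close to the -0.01 of all named genes, of which 47.6% had a higher mean in IMO. The part of cell makeup in the Hgf difference was not tested.

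**Figure D4:**
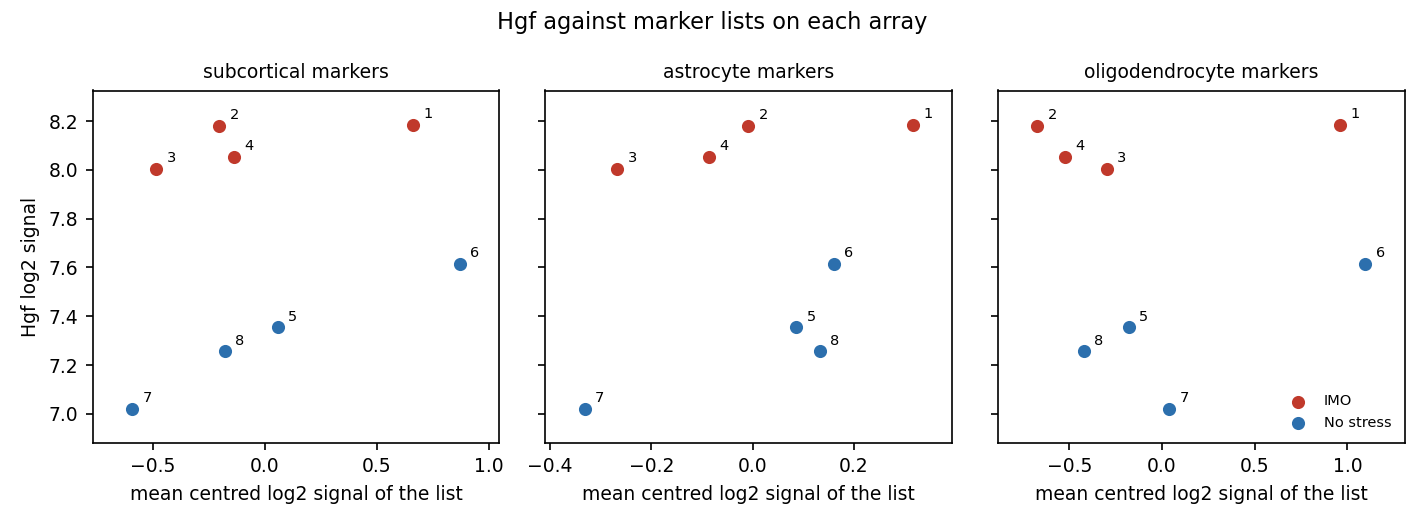
Hgf log2 signal of each array (vertical axis) against the mean centred log2 signal of subcortical, astrocyte and oligodendrocyte markers (horizontal axes), with IMO in red, No stress in blue and replicate numbers beside the points. Within each group Hgf is lowest where the subcortical and astrocyte lists are lowest (IMO replicate 3 and No stress replicate 7). In the value table, shown here, every IMO array has more Hgf than every No stress array. The part of the marker levels in that difference was not tested.

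The genes whose pattern was most like that of Hgf were ranked by r after centring within groups, over 8 arrays and among 9640 named genes detected on all of them, whose median r was -0.03 and whose 99th percentile was 0.865. Acot1, which encodes a cytosolic acyl-CoA thioesterase, had an r of 0.98, Lyrm2, which encodes a mitochondrial protein with an LYR motif, 0.97, and Npepl1, which encodes a putative aminopeptidase, 0.97. Igfbp4, which encodes a binding protein of insulin-like growth factors, and Nxt2, which encodes an RNA export factor, both had 0.96. With IMO replicate 1 and No stress replicate 6 left out the 5 coefficients were between 0.92 and 0.98.

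Of these 5, Lyrm2 also had groups that did not overlap, as did 7.17% of all named genes, 3.25% with IMO above No stress. It read 9.48, 9.41, 9.36 and 9.35 in IMO, against 9.18, 9.29, 8.99 and 9.14 in No stress. Every IMO array lay above every No stress array, and the difference of 0.25 (SE 0.09) had an unadjusted limma p of 0.0160 and an adjusted p of 0.377. The other 4 had overlapping groups, with differences from -0.15 to -0.01.

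The genes most opposed to Hgf were Nploc4, which encodes a cofactor of the ATPase VCP, at -0.98, the activity-induced transcription factor gene Fos at -0.98 and the potassium channel gene Kcnh4 at -0.97. Fos read 9.04, 8.70, 9.73 and 9.38 in IMO, against 9.57, 8.86, 10.97 and 10.19 in No stress. Its highest array in each group, IMO replicate 3 and No stress replicate 7, was the one with the least Hgf. The groups overlapped in Fos, with a difference of -0.68 (SE 0.38) and an adjusted limma p of 0.567. These coefficients, all from the value table, were picked as extremes among 9640 genes over 8 arrays and are descriptions only. None is given for the second table, where the Hgf difference had the opposite sign.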

How the data were processed

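Per the labels' protocols, total RNA from the punches was purified on RNeasy columns and amplified to biotin-labelled cRNA for Illumina arrays. The authors deposited 2 tables of linear signal intensity for 45281 probes, and a detection p-value per probe and array beside the second; the steps between scanning and these intensities are not stated there. Sorted columns of both tables are nearly equal, the form quantile normalization leaves, although the second is named non-normalized. Nothing was therefore normalized again. The value table was the main one, and 0 columns were left unmapped.

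The log2 of the deposited intensities was used with nothing added, as the lowest was 26.9. Probes detected (p under 0.05) on at least 4 of 8 arrays, 20531 in all, were tested with limma 3.58.1 (lmFit, eBayes) in R 4.3.3, after a check on simulated data, with Benjamini-Hochberg adjustment. The number of arrays limits precision: the median standard error was 0.108. The platform annotation gave 1 symbol to 34885 probes, several to 18 and none to 10378. A gene was read at its brightest tested probe.

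Replicate numbers are the sample numbers 1 to 8. The members, gene lists and tests were chosen with earlier results of these data known. Genes named were all Hgf and Met probes, the 2 of smallest p and each with p under 0.05 in a pathway list, the 2 of highest and the 1 of lowest r over the arrays in a glial or vascular list, and the 5 most like and 3 least like Hgf within groups; others were named to describe a list. Alternatives were the second table, the filter, an offset of 16, repeated quantile normalization, the mean of a gene's probes, leaving out 1 array or both subcortical-rich arrays, and background subtraction.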

Additional observations from a re-analysis of the deposited data

Results flagged for a closer look

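In 5 of the 46 sets of 4 arrays checked (each member probe, each pathway gene named and each of the 8 genes most like or most opposed to Hgf, in each group), 1 array lay far from the other 3, with a gap to its neighbour that took up a larger share of the group's range than Dixon's critical value; chance alone gives this in about 5% of sets. For Spint1 the share was 0.885 in IMO, where replicate 1 read 8.62 and the next array 7.52, and 0.831 in No stress, where replicate 6 read 8.45 and the next 7.71. These are the arrays rich in subcortical markers. For Shc1 it was 0.869 in IMO, with replicate 3 at 8.19 below the next at 8.67, and 0.923 in No stress, with replicate 8 at 9.21 above the next at 8.89. For Pdgfa in No stress it was 0.837, with replicate 6 at 10.99 below the next at 11.13. Neither Hgf nor Met had such an array.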

How the results depend on the processing

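The Hgf difference of 0.79 was -0.19 in the second deposited table, the 1 setting that turned its direction, and the cause was not tested. It was 1.03 after background subtraction, an alternative chosen after seeing the data that widens differences of dim probes by construction, 0.87 without both subcortical-rich arrays, and 0.70 to 0.90 when single arrays were left out. Averaging all detected Hgf probes changes nothing, since 1 was detected. The Met readings, at background on every array, differed by 0.09 in the value table and by -0.16 in the second table, values from which no change can be read.

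The count of genes in the pathway lists, growth factors of other receptors included, with an adjusted limma p under 0.05 was 0 under every alternative. At an unadjusted p it was 7 of 44, against 1 in the second table (2.27%, beside 2.89% of all named genes) and 5 to 11 when single arrays were left out, 11 without No stress replicate 7 (25%, beside 9.96% of all). In the second table the sign turned for Itga6 (0.13), Gpc1 (0.0914), Shc1 (0.14), Crkl (0.0195), Ptpn1 (0.0184), Ptprf (-0.0827) and Bdnf (-0.0435). Spint1 moved between -0.37 and 0.14 with single arrays left out, turning to 0.02 without IMO replicate 2, 0.05 without IMO replicate 3 and 0.14 without No stress replicate 6.

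No marker list passed an adjusted exact permutation p of 0.05 over all arrays, in the second table, without both subcortical-rich arrays or without any single array, the alternatives run for correlations. Within groups, the astrocyte list (0.49 to 0.85) and the mural list (0.35 to 0.62) did so in 1 of 8 settings that left out 1 array, and the subcortical list (0.73 to 0.96) in 0. Correlations of Met were not run, because values at background have no order. No paired analysis was possible because the replicate numbers 1 to 8 are not shared between the groups.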
